A study of Mus musculus with 18 samples.

Results

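The genes described here are 36 stress response genes of the mouse, out of 56953 gene IDs counted. They were taken by symbol from a list: 15 heat shock and cytosolic chaperone genes (Hspa1a to Chordc1), 12 integrated stress response genes (Atf4 to Ppp1r15a) and 9 unfolded protein response genes of the endoplasmic reticulum (Xbp1 to Calr). The list was chosen with earlier results of these data known. Counts of its genes beside those of all genes are therefore a description and not a test. All 36 were found in the table and all 36 passed the filter on low counts. RNA was sequenced from macrophages grown from bone marrow for 7 days in medium that held 20% fetal bovine serum and, for its M-CSF, 30% supernatant from the L929 line. The groups were T169A LPS/5z7, B6 LPS/5z7, T169A LPS, B6 LPS, T169A unstimulated and B6 unstimulated, with 3 libraries each and 18 in all. B6 stands for C57BL/6J cells without the change. T169A cells carry that threonine to alanine change in RIPK1, a kinase in TNF and Toll-like receptor signalling, and come from mice with the change in their own Ripk1 gene. LPS, the bacterial lipopolysaccharide that is sensed by TLR4, was given for 2 hours, alone or with 5z7. The labels leave 5z7 unexplained; it is the usual short name of (5Z)-7-oxozeaenol, which inhibits the kinase TAK1. No group received 5z7 without LPS.

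Cells answer damage to their proteins with several programmes. In the heat shock response, the transcription factor HSF1 is freed from chaperones when unfolded proteins collect in the cytosol, binds heat shock elements and switches on HSP70, HSP90 and their co-chaperones. In the integrated stress response, kinases that sense amino acid shortage, double-stranded RNA, heme shortage or endoplasmic reticulum stress phosphorylate eIF2α, which slows translation but favours that of ATF4, a transcription factor for amino acid and redox genes. In the unfolded protein response, IRE1, ATF6 and PERK in the endoplasmic reticulum membrane raise its chaperones. Macrophages given LPS are known to expand secretion and to use parts of these programmes.

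Promoter letters show how the 3 groups of genes are built, so short stretches of the ones the results turn on are printed here, from RefSeq on GRCm38.p6 (an older build than the authors' GRCm39), in capitals where a motif matches. Windows ran from 250 bases before to 50 bases after a gene's start and were found for 33 of the 36 genes, all but Hspa8, Hsp90aa1 and Hsp90ab1. Both strands were searched, and a gene with several windows counts where any of them matches. Hspa1a and Hspa1b, the stress-inducible HSP70 genes, share a stretch with a heat shock element of 2 units, GAANNTTC, where N is any base. It lies at chr17:34972223-34972290 for Hspa1a and chr17:34959305-34959372 for Hspa1b, both on the minus strand, and the 2 stretches are the same letter for letter.
Hspa1a: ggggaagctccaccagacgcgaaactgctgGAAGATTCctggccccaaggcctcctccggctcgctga
Hspa1b: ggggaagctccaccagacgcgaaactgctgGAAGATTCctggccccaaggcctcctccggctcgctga
Hspe1 and Hspd1, the mitochondrial chaperonin genes, start from opposite strands and share 1 element of 3 units (GAANNTTC with GAA 2 bases after it or TTC 2 bases before it, here 2 overlapping matches, chr1:55088059-55088076). It is shown from the Hspe1 side, plus strand, chr1:55088053-55088082.
Hspe1: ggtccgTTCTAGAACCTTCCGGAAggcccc

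For the integrated stress response genes the motif searched was the C/EBP-ATF response element, TGATGNAA, known as a binding site of ATF4 with C/EBP partners. It is shown for an amino acid gene, a glutathione gene and the gene with the largest rise of that group. The Asns stretch is chr6:7693210-7693262 (minus strand), the Chac1 stretch chr2:119351019-119351086 (plus strand) and the Nupr1 stretch chr7:126625543-126625610 (minus strand). In Chac1 and Nupr1 the element reads in reverse, as TTGCATCA.
Asns: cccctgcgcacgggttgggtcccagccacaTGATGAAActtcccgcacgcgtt
Chac1: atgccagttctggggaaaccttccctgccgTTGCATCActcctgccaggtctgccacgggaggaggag
Nupr1: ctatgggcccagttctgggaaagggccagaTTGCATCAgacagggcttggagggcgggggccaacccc

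For the unfolded protein response genes the motif was the endoplasmic reticulum stress response element, CCAAT and CCACG with 9 bases between, known from the promoters of reticulum chaperones. The 4 genes that hold it are shown, since with TMM scaling 3 of them were called higher with LPS in both genotypes and Calr did not pass the test (with library size alone, Hsp90b1 and Pdia6 turn sign). The stretches are chr2:34771995-34772073 for Hspa5 (plus), chr10:86705503-86705581 for Hsp90b1 (minus), chr12:17266461-17266539 for Pdia6 (plus) and chr8:84847045-84847123 for Calr (minus). The stretches of Hsp90b1 and Calr hold it in reverse, and the window of Hsp90b1 holds a further match in the forward direction, not shown.
Hspa5: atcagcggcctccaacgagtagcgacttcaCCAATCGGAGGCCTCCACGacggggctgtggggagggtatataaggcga
Hsp90b1: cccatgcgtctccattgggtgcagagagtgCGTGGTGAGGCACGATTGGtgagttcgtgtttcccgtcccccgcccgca
Pdia6: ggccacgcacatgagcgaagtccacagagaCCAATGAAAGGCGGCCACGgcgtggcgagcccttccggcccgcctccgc
Calr: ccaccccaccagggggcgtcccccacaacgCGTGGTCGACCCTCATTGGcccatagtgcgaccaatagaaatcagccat

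Over the groups, the 2-unit heat shock element lay in the windows of 8 of 12 heat shock genes (Hspa1a, Hspa1b, Hsph1, Dnaja1, Hspd1, Hspe1, Bag3 and Chordc1). It lay in 1 of 12 integrated stress genes (Asns, where it overlaps the C/EBP-ATF element) and 0 of 9 unfolded protein genes, against 9.04% of the 27025 genes with a window. The 3-unit element, which contains the 2-unit one, lay in Hsph1, Hspd1, Hspe1 and Chordc1 and in 0.662% of all genes. The C/EBP-ATF element lay in 0 of 12 heat shock genes, in 4 of 12 integrated stress genes (Asns, Chac1, Trib3 and Nupr1), in Herpud1 among the unfolded protein genes, and in 4.51% of all genes. The reticulum stress element lay in 4 of 9 unfolded protein genes, in none of the other 24 with a window, and in 0.137% of all genes. These are matches of letters in a window and do not show that a factor is bound.

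The libraries held 14.6 to 30.4 M counts. The macrophage markers (8 of 8 detected) summed to 31700 to 44600 counts per M (CPM, scaled by TMM) in each library. The 7 neutrophil markers summed to 27.8 to 69.6 CPM in LPS/5z7 and LPS libraries and 21.2 to 42 CPM in unstimulated ones, and the 4 dendritic cell markers to 1.36 to 3.13 and 0.163 to 0.473 CPM. Their part in the results below was not tested. Sums of T cell, B cell, NK cell, fibroblast, erythroid, mast cell and endothelial markers were at most 12.2 CPM. Tnf, the cytokine gene that LPS is known to raise, stood at 4950 ± 371 CPM in B6 LPS and 106 ± 27.4 CPM in B6 unstimulated cells (SD, n = 3). B6 unstimulated library 7 had the fewest counts of all and stood apart for several genes below. The sample titles carry a replicate letter, A to C in B6 and D to F in T169A, and each letter recurs in every treatment of its genotype. What a letter stands for is not said, and the columns of counts carry none. Libraries of a group may come from separate animals or cultures or be technical, and p-values measure the spread between these libraries. If a letter marks a preparation split over the treatments, the main fit leaves that pairing out. In bulk RNA, fewer cells with a transcript and less of it per cell cannot be told apart. Levels are CPM as mean ± SD of 3 libraries, changes are log2 fold changes ± SE, and "called" means an adjusted p under 0.05 over the 13068 genes tested (edgeR quasi-likelihood test, Benjamini-Hochberg). TMM factors ran from 1.24 to 1.28 in unstimulated, 0.83 to 0.86 in LPS and 0.93 to 0.96 in LPS/5z7 libraries. Every direction is therefore relative to the bulk of genes: with library size alone, the median of all genes shifts by −0.58 in T169A and −0.59 in B6 for LPS against unstimulated cells.

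Per length, the 36 genes differed widely in level before any treatment. In B6 unstimulated cells, Calr, a calcium-binding chaperone gene of the reticulum, had 228 CPM per kb of exon, Hsp90ab1, the constitutive HSP90 gene, 213, Hspa8, the constitutive HSP70 gene, 174 and Hspa5, the reticulum HSP70 gene known as BiP, 133. At the low end stood Chac1 at 0.343, Phgdh at 0.374, Hspa1a at 0.535 and Hspa1b at 0.538 CPM per kb. The constitutive chaperones were thus the abundant members, and the inducible HSP70 pair was close to the bottom of the list.

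LPS against unstimulated cells asked what 2 hours of TLR4 stimulation did to these genes. Of the 15 heat shock genes, 11 were called higher and 1 lower in T169A, where 30.3% of all genes were called higher and 31.5% lower. In B6, 9 were called higher and 2 lower, where 29.6% of all genes were called higher and 33.5% lower. The median log2 fold change of the 15 was 0.41 in T169A and 0.45 in B6, beside −0.03 and −0.07 for all genes. With library size alone the counts were 5 higher and 5 lower in T169A and 4 higher and 6 lower in B6, so higher calls outnumbered lower ones with TMM and not with library size alone. Hspa1a, Hspa1b, Dnaja1 and Hsp90aa1 were called higher under both scalings in both genotypes.

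The inducible HSP70 genes had the largest changes of the heat shock group. Hspa1a stood at 19.3, 19.4 and 24.4 CPM in the T169A LPS libraries, against 1.4, 1.37 and 1.35 CPM in the T169A unstimulated ones, and at 18.7, 19.9 and 21.9 CPM in B6 LPS, against 1.43, 1.45 and 1.88 CPM in B6 unstimulated libraries. Hspa1b stood at 30.6, 32.5 and 40 CPM in T169A LPS, against 1.57, 0.942 and 0.857 CPM in T169A unstimulated libraries, and at 36.9, 35.5 and 44 CPM in B6 LPS, against 1.39, 1.95 and 1.18 CPM in B6 unstimulated ones. In each genotype every LPS library lay far above every unstimulated one. Hspa1a rose 15.2-fold in T169A (3.93 ± 0.14, adjusted p = 3.48e-13, edgeR) and 12.8-fold in B6 (3.68 ± 0.14, 6.21e-13), and Hspa1b 30.5-fold (4.93 ± 0.20, 1.26e-12) and 24.7-fold (4.63 ± 0.19, 1.63e-12). The coding sequences of these genes are 99.4% identical on GRCm38 (1915 of 1926 aligned positions). How reads that match both were counted is not given in the sources used here, so the split between Hspa1a and Hspa1b is uncertain.

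Co-chaperones and HSP90 followed at a smaller scale. Dnaja1, a J-domain partner of HSP70, stood at 126, 133 and 126 CPM in T169A LPS, against 44.9, 39.4 and 41.7 CPM in T169A unstimulated libraries. In B6 it stood at 113, 125 and 147 CPM with LPS, against 41.6, 44.3 and 48.4 CPM without. Its groups did not overlap, and it rose 3.05-fold in T169A (1.61 ± 0.10) and 2.87-fold in B6 (1.52 ± 0.09). Hsp90aa1, the inducible HSP90 gene, stood at 198, 167 and 173 CPM in T169A LPS, against 84.4, 81.4 and 83 CPM in T169A unstimulated libraries. In B6 it stood at 208, 202 and 162 CPM with LPS, against 82.8, 94 and 68 CPM without, and it rose by 1.11 ± 0.12 in T169A and 1.23 ± 0.12 in B6. Bag3, which couples HSP70 to selective autophagy, stood at 84.2, 92.6 and 96.9 CPM in T169A LPS, against 54.8, 49.5 and 48.7 CPM in T169A unstimulated libraries. In B6 it stood at 85.4, 81.6 and 94 CPM with LPS, against 54.1, 56.8 and 49.5 CPM without, again with no overlap, and it rose by 0.84 ± 0.08 in T169A and 0.70 ± 0.08 in B6. With library size alone Bag3 was at 0.26 in T169A, still called, and at 0.11 in B6, not called (adjusted p = 0.22, edgeR).

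The abundant and the mitochondrial chaperones moved less. Hspa8 rose by 0.70 ± 0.08 in T169A, where the call is lost with library size alone (0.12), and by 0.52 ± 0.08 in B6, where its sign turns with library size alone (−0.07). Hspa4, an HSP110-type exchange factor gene, rose by 0.39 ± 0.09 in T169A and 0.41 ± 0.09 in B6, Hsp90ab1 by 0.55 ± 0.07 and 0.48 ± 0.07, and Chordc1, an HSP90 co-chaperone gene, by 0.41 ± 0.10 and 0.45 ± 0.10, but all 3 turn sign with library size alone in both genotypes. Hsph1, which also encodes an HSP110 chaperone, went the other way. It had 30.6, 23.8 and 27.4 CPM in T169A LPS, against 34.8, 34.2 and 35.6 CPM in T169A unstimulated libraries, and 31.6, 31.2 and 26.7 CPM in B6 LPS, against 38, 39.3 and 32 CPM in B6 unstimulated ones. It fell by 0.35 on the log2 scale in T169A (SE 0.10, adjusted p = 0.00551, edgeR) and by 0.28 in B6 (SE 0.10, 0.0185). Without B6 unstimulated library 1 or 4 or LPS library 8 the B6 call was lost (adjusted p = 0.0614, 0.0862 and 0.101), as it was with DESeq2 (0.0527) and with the compared groups fitted alone (0.157). Ahsa1, which activates the HSP90 ATPase, was called lower in B6 (−0.30 ± 0.09, adjusted p = 0.0114) and was at −0.14 ± 0.09 in T169A (0.223). Without B6 unstimulated library 7 the Ahsa1 call was lost (−0.18, 0.0593), as it was with the compared groups fitted alone (0.159).

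Dnajb1, a classic HSP40 gene, and Hspd1 were called higher in T169A (both 0.27, with SE 0.10 and 0.08; adjusted p = 0.0271 and 0.00966, edgeR) but not in B6 (0.12 ± 0.10 and 0.17 ± 0.08; 0.323 and 0.0759). With library size alone both were called lower. They were at −0.31 (adjusted p = 0.013, edgeR) and −0.32 (0.00174) in T169A, and at −0.48 (0.000571) and −0.42 (0.000141) in B6. With TMM scaling, leaving out T169A unstimulated library 13 or 16 or LPS library 14 or 17 lost the Dnajb1 call (adjusted p = 0.0819, 0.0694, 0.0618 and 0.128). Leaving out T169A LPS library 11 lost that of Hspd1 (0.0746). In B6, Hspd1 was called without unstimulated library 4 (0.23, 0.0332) or LPS library 8 (0.22, 0.0465). Hspe1, its partner chaperonin, and Hspa4l were not called in either genotype. Hspe1 had 18.1, 21.6 and 25.1 CPM in T169A LPS against 19.3, 17.6 and 19.4 CPM in T169A unstimulated libraries, and 15, 17.8 and 21.5 CPM in B6 LPS against 16, 17 and 31.5 CPM in B6 unstimulated ones, where library 7 stood apart (B6 log2 fold change −0.25 ± 0.21, and 0.11 without that library). Of the 8 genes with a 2-unit heat shock element in the window, Hspa1a, Hspa1b, Dnaja1, Bag3 and Chordc1 rose with TMM scaling in both genotypes (with library size alone Chordc1 turns sign in both and the B6 call of Bag3 is lost, at 0.11) and Hsph1 fell in both, while Hspd1 and Hspe1 did not pass in B6. Among the genes with a window but no such element, Hspa4 was called higher in both genotypes with TMM scaling and Dnajb1 in T169A only. Ahsa1 was called lower in B6 only, and Hspa4l was not called.

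**Figure D1:**
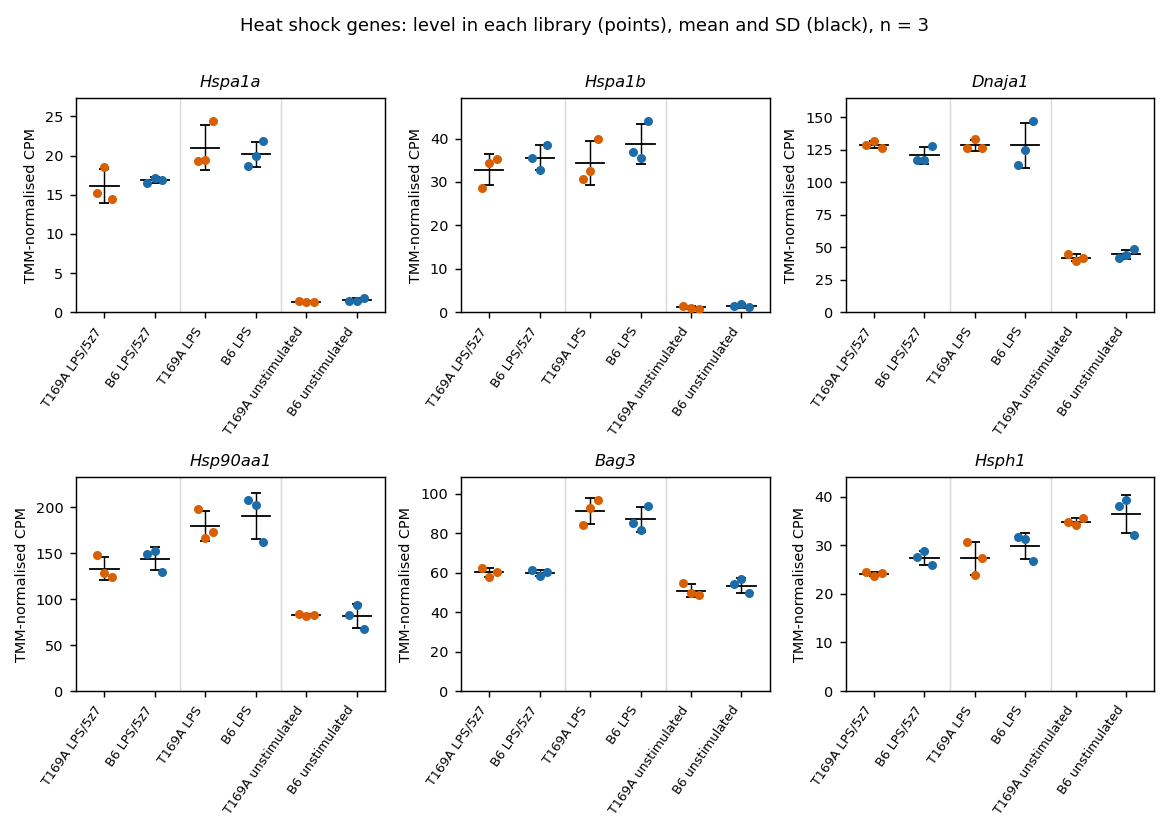
Level of 6 heat shock genes in each library (points, TMM-normalised CPM, linear axes from 0) with the mean and SD of each group of 3 (black), T169A in orange and B6 in blue. Hspa1a and Hspa1b stand at 14.5 to 44 CPM in LPS/5z7 and LPS libraries and at 0.857 to 1.95 CPM in unstimulated ones, Bag3 and Hsp90aa1 stand lower with LPS/5z7 than with LPS, and Hsph1 is highest in unstimulated cells.

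Of the 12 integrated stress response genes, 7 in T169A and 6 in B6 were called with a change of at least 2-fold under LPS, against 4 of 15 heat shock genes in each genotype and 29.5% of all genes in T169A and 30.4% in B6. At any size, 9 of 12 in each genotype were called higher and 1 lower, with a median of 0.93 in T169A and 0.90 in B6. Over all genes 30.3% were called higher and 31.5% lower in T169A, and 29.6% and 33.5% in B6. With library size alone 6 of the 12 were higher and 2 lower in each genotype. Nupr1, a small stress-inducible chromatin-associated protein, stood at 313, 388 and 428 CPM in T169A LPS, against 10.3, 8.87 and 9.75 CPM in T169A unstimulated libraries. In B6 it stood at 280, 300 and 444 CPM with LPS, against 11.5, 14.4 and 20 CPM without. It rose 38.9-fold in T169A (5.28 ± 0.22, adjusted p = 1.72e-12, edgeR) and 22.5-fold in B6 (4.49 ± 0.21, 8.43e-12), the largest log2 fold change of the 36 genes in T169A and the second in B6, after Hspa1b.

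Ppp1r15a, known as GADD34, directs a phosphatase to eIF2α and so ends the translation block. It stood at 189, 157 and 157 CPM in T169A LPS, against 30.5, 24.2 and 22.3 CPM in T169A unstimulated libraries, and at 206, 212 and 188 CPM in B6 LPS, against 30.8, 30.9 and 28.6 CPM in B6 unstimulated ones. It rose 6.54-fold in T169A (2.71 ± 0.14) and 6.71-fold in B6 (2.75 ± 0.14). Atf4, the transcription factor of the pathway, rose by 1.13 ± 0.12 in T169A, with 206, 282 and 288 CPM in LPS against 128, 116 and 111 CPM in unstimulated libraries. In B6 it rose by 0.89 ± 0.12, with 250, 251 and 289 CPM in LPS against 138, 136 and 150 CPM in unstimulated libraries. ATF4 is controlled mainly at translation, which counts of mRNA do not show. Atf5, a related factor, rose by 0.70 ± 0.10 in T169A and by 0.56 ± 0.10 in B6, where its sign turns with library size alone (−0.03).

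Ddit3, which encodes the pro-apoptotic factor CHOP, was the only gene of this group called lower with TMM scaling. It had 4.17, 4.85 and 7.05 CPM in T169A LPS, against 12.2, 11.9 and 14.6 CPM in T169A unstimulated libraries, and 4.36, 4.65 and 5.6 CPM in B6 LPS, against 10.5, 11.6 and 19.5 CPM in B6 unstimulated ones. Every LPS library lay below every unstimulated one. Ddit3 fell by 1.28 on the log2 scale in T169A (SE 0.23, adjusted p = 1.24e-04, edgeR) and by 1.51 in B6 (SE 0.23, 2.16e-05), or by 1.2 without B6 unstimulated library 7. A second gene ID with this symbol, which overlaps the first, had no counts; reads in a shared part may have gone uncounted.

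Among the targets, Ddit4, which restrains mTORC1, had 5.92, 8.81 and 9.76 CPM in T169A LPS against 2.06, 2.32 and 1.79 CPM in T169A unstimulated libraries, and 4.16, 4.02 and 9.95 CPM in B6 LPS against 1.27, 0.68 and 1.99 CPM in B6 unstimulated ones. It rose by 1.97 ± 0.38 in T169A and 2.22 ± 0.41 in B6. Chac1, which degrades glutathione, rose by 1.71 ± 0.30 in T169A and 2.12 ± 0.29 in B6, at low levels (means of 2.02 in T169A LPS against 0.607 in T169A unstimulated cells, and of 2.49 in B6 LPS against 0.561 CPM in B6 unstimulated cells). Mthfd2, a mitochondrial folate enzyme gene, rose by 1.35 ± 0.10 in T169A and 1.44 ± 0.09 in B6, Asns, asparagine synthetase, by 0.71 ± 0.14 and 0.90 ± 0.13, and Psat1, of serine synthesis, by 0.74 ± 0.10 and 0.75 ± 0.10. Phgdh, the first enzyme of that route, stood at 0.855 ± 0.160 CPM in T169A LPS against 0.809 ± 0.118 CPM in T169A unstimulated cells and was not called. Trib3, a pseudokinase gene, was not called either (−0.41 ± 0.21 in T169A and −0.44 ± 0.20 in B6; adjusted p = 0.102 and 0.0673, edgeR). It was called without T169A LPS library 17 (−0.62, 0.0269) or B6 unstimulated library 1 (−0.56, 0.0347). Of the 4 genes of this group with the C/EBP-ATF element in the window, Asns, Chac1 and Nupr1 were called higher with TMM scaling in both genotypes. Trib3 was not called. Most genes of the group without the element rose as well. With TMM scaling Atf4, Atf5, Ddit4, Psat1, Mthfd2 and Ppp1r15a were called higher in both genotypes, Phgdh was not called and Ddit3 fell.

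Of the 9 unfolded protein response genes, 5 were called higher and 1 lower in each genotype, with a median of 0.27 in T169A and 0.26 in B6. Over all genes 30.3% were called higher and 31.5% lower in T169A, and 29.6% and 33.5% in B6. In either direction 66.7% of the 9 were called in each genotype, close to the 61.9% of all genes in T169A and 63.1% in B6. Without TMM factors the counts for the 9 were 2 higher and 3 lower in T169A and 2 higher and 5 lower in B6. Hspa5 stood at 1510, 1510 and 1550 CPM in T169A LPS, against 528, 545 and 574 CPM in T169A unstimulated libraries, and at 1460, 1480 and 1620 CPM in B6 LPS, against 463, 547 and 680 CPM in B6 unstimulated ones. It rose 2.77-fold in T169A (1.47 ± 0.11) and 2.7-fold in B6 (1.43 ± 0.11), and in each genotype its groups lay far apart. Xbp1, whose mRNA is spliced by IRE1 into the active form, stood at 211, 214 and 219 CPM in T169A LPS, against 110, 111 and 109 CPM in T169A unstimulated libraries. In B6 it stood at 216, 213 and 230 CPM with LPS, against 112, 108 and 122 CPM without, and it rose by 0.97 ± 0.07 in T169A and 0.95 ± 0.07 in B6. Gene counts do not tell its spliced form from its unspliced one.

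Herpud1, a gene of reticulum-associated degradation, rose by 0.71 ± 0.21 in T169A and 0.76 ± 0.20 in B6 with TMM scaling. It spread within groups: 63.5, 81.9 and 97.2 CPM in T169A LPS, against 52.8, 49.6 and 45.3 CPM in T169A unstimulated libraries. Hsp90b1, the reticulum HSP90, was called higher (0.27 ± 0.09 in T169A and 0.26 ± 0.09 in B6), as was Pdia6, a protein disulfide isomerase gene (0.46 ± 0.17 and 0.44 ± 0.17), and both turn sign with library size alone in both genotypes. These small calls did not hold with each library left out. For Hsp90b1 the T169A call was lost without LPS library 11 or 14 (adjusted p = 0.0524 and 0.0592, edgeR) and the B6 call without unstimulated library 1 or LPS library 8 (0.101 and 0.0613). For Pdia6 the T169A call was lost without unstimulated library 10 or 13 or LPS library 14 or 17 (0.0733, 0.0568, 0.063 and 0.102), and the B6 call without unstimulated library 1 or 4 or LPS library 8 (0.125, 0.107 and 0.212). Without B6 unstimulated library 7, Pdia6 was at 0.64 in B6. Pdia4, another isomerase gene, was called lower (−0.22 ± 0.09 in T169A and −0.31 ± 0.09 in B6). Its T169A call was lost without unstimulated library 10, 13 or 16 or LPS library 14 or 17 (adjusted p = 0.0639, 0.0696, 0.127, 0.0661 and 0.118) and with DESeq2 (0.0691), and its B6 call with the compared groups fitted alone (0.106).

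Dnajb9, a J-domain partner of Hspa5, Sdf2l1 and Calr were not called with LPS. Sdf2l1 had 28.3, 38.8 and 47.1 CPM in T169A LPS against 37.1, 40.8 and 37 CPM in T169A unstimulated libraries, and 27, 27.3 and 40.2 CPM in B6 LPS against 31.6, 31 and 60.9 CPM in B6 unstimulated ones. Calr had 664, 697 and 856 CPM in B6 LPS against 543, 612 and 811 CPM in B6 unstimulated libraries. The value of 60.9 for Sdf2l1 and that of 811 for Calr are both from library 7, and without it Calr was called higher in B6 (0.36, adjusted p = 0.00963, edgeR; with it 0.17 ± 0.13, 0.271), while Sdf2l1 in B6 was at −0.01 without it and −0.39 ± 0.26 with it. Of the 4 genes with the reticulum stress element in the window, Hspa5, Hsp90b1 and Pdia6 were thus called higher in both genotypes with TMM scaling, at sizes that differed from 1.47 for Hspa5 to 0.27 for Hsp90b1 in T169A. With library size alone the sign of Pdia6 turns in both genotypes. Hsp90b1 was then called lower in T169A (−0.31, adjusted p = 0.00411, edgeR) and in B6 (−0.33, 0.00258), as was Calr in B6 (−0.42, 0.0103). Among the genes without the element, Xbp1 and Herpud1 were also called higher in both genotypes with TMM scaling. Pdia4 was called lower, and Dnajb9 and Sdf2l1 were not called. With library size alone 2 genes of the group were called higher in each genotype, so Hspa5, Xbp1 and Herpud1 did not all keep their calls. Of these, Herpud1 had the smallest rise with TMM scaling and the largest SE.

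**Figure D2:**
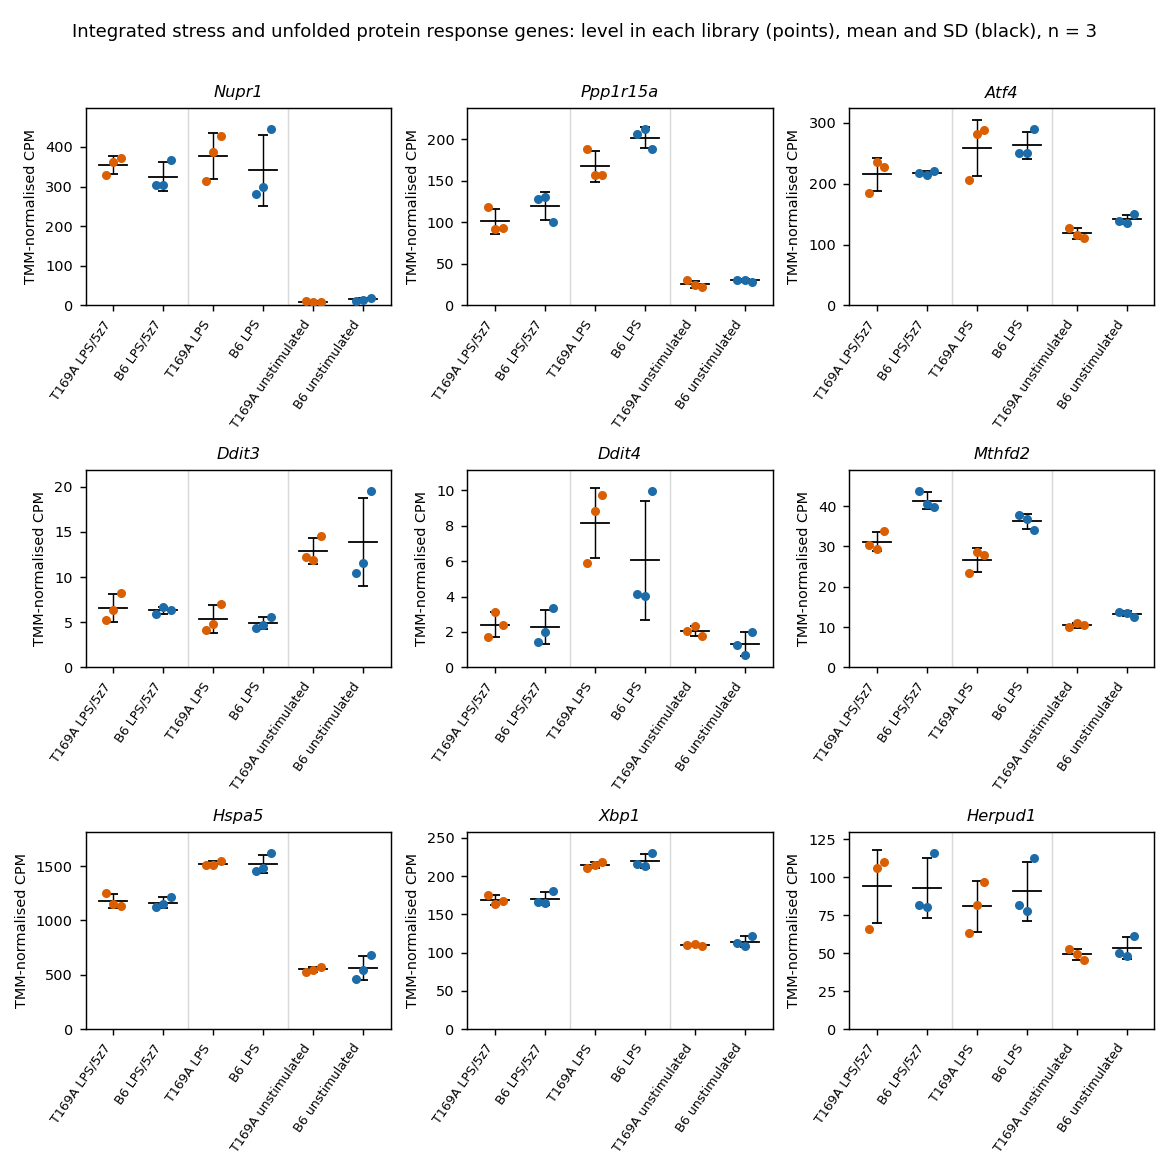
Level of 9 integrated stress and unfolded protein response genes in each library (points, TMM-normalised CPM, linear axes from 0) with the mean and SD of each group of 3 (black), T169A in orange and B6 in blue. Nupr1 stands at 280 to 444 CPM in all LPS/5z7 and LPS libraries, Ddit3 is highest in unstimulated cells, and Ppp1r15a, Ddit4, Hspa5 and Xbp1 stand lower with LPS/5z7 than with LPS.

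**Figure D3:**
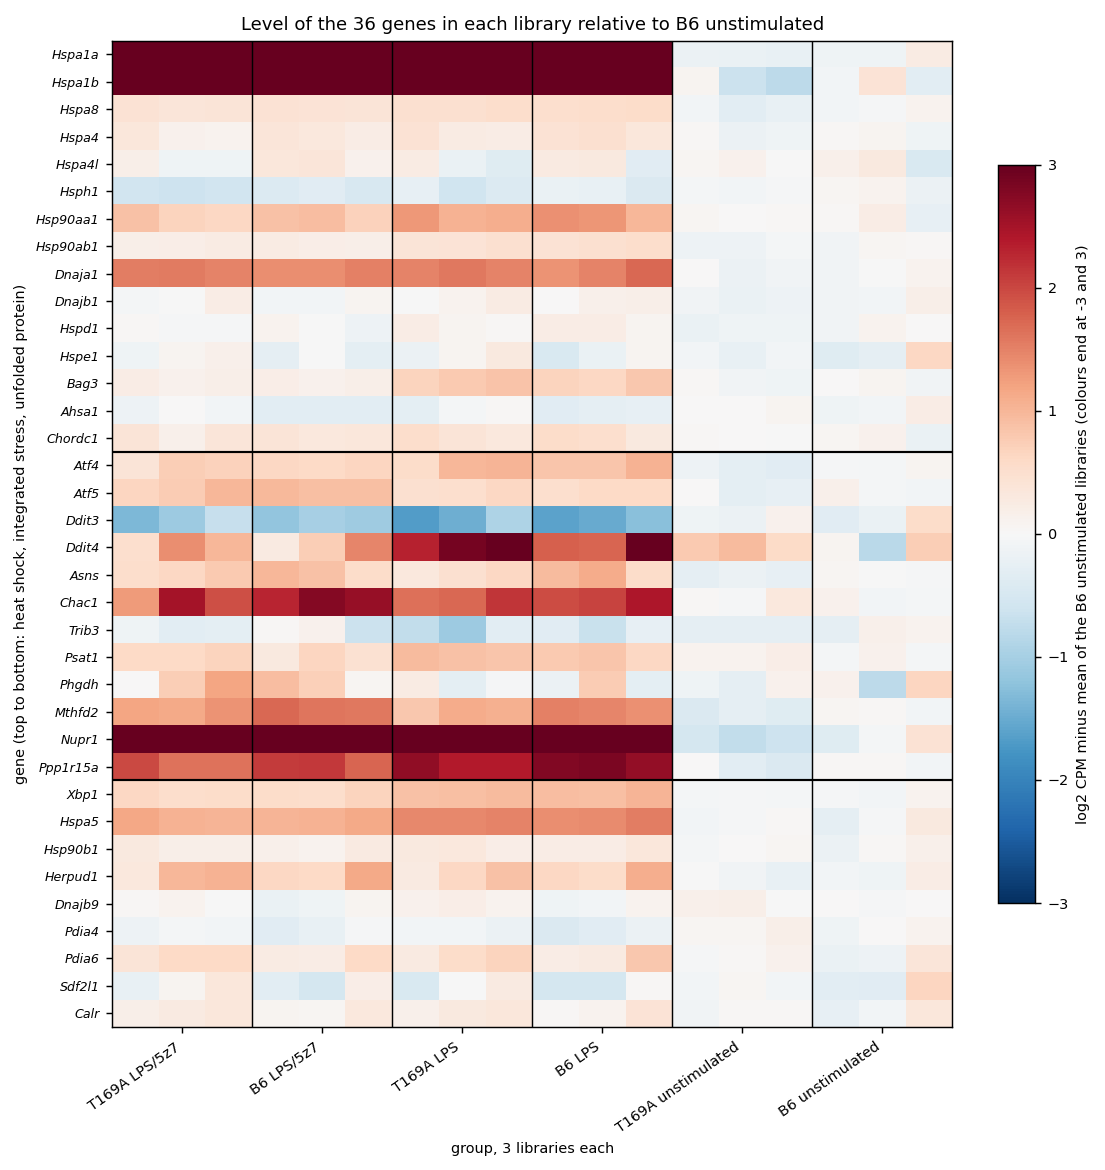
Level of the 36 genes in each of the 18 libraries as log2 CPM minus the mean of the B6 unstimulated libraries (colours, which end at 3 to either side; red higher, blue lower), with heat shock genes at the top, integrated stress genes in the middle and unfolded protein genes at the bottom. Hspa1a, Hspa1b and Nupr1 pass the end of the scale in every LPS/5z7 and LPS library, and Ddit3 is the bluest row.

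LPS/5z7 against LPS asked how the response changed with 5z7 present. Of the 36 genes, 7 were called in T169A, all lower, and 8 in B6, of which 7 were lower (19.4% and 22.2%, beside 13% and 13.8% of all genes in either direction). That lean to lower depends on the scaling: with library size alone 2 were called higher and 3 lower in T169A, and 3 higher and 3 lower in B6. Bag3, Ddit4 and Ppp1r15a were called lower under both scalings in both genotypes. Of the 15 heat shock genes, 0 were called higher and 3 lower in T169A, where 6.5% of all genes were called higher and 6.53% lower. In B6 the counts were also 0 and 3, where 7.03% of all genes were called higher and 6.79% lower. The median was −0.12 in each genotype, beside 0.02 for all genes. Of the 12 integrated stress genes, T169A had 0 called higher and 2 called lower and B6 had 1 and 2 (medians 0.15 and 0.06), and of the 9 unfolded protein genes 0 were higher and 2 lower in each (medians 0.01 and −0.04).

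In the heat shock group, Bag3 stood at 62.5, 57.9 and 60.2 CPM in T169A LPS/5z7 libraries and at 61.4, 58.4 and 60.5 CPM in B6 LPS/5z7 libraries, below every LPS library given above. It fell by 0.60 on the log2 scale in T169A (SE 0.08, adjusted p = 8.78e-05, edgeR) and by 0.53 in B6 (SE 0.08, 2.99e-04), and both calls held with each library left out. Hsp90aa1 stood at 148, 128 and 124 CPM in T169A LPS/5z7 and at 149, 153 and 130 CPM in B6 LPS/5z7 libraries, again below all LPS libraries of the genotype. It fell by 0.43 in T169A (SE 0.12, adjusted p = 0.0263) and by 0.40 in B6 (SE 0.12, 0.0351). Those calls were lost without T169A LPS library 11 or LPS/5z7 library 15 or 18 (0.116, 0.106 and 0.119), and without B6 LPS library 2 or 5 or LPS/5z7 library 3, 6 or 9 (0.124, 0.114, 0.0738, 0.0505 and 0.133). Hsp90ab1 was called lower in B6 (−0.28 ± 0.07, 0.0193) and was at −0.21 ± 0.07 in T169A (0.0734). Hspa1a was called lower in T169A (−0.38 ± 0.11, 0.036), where it had 15.2, 18.6 and 14.5 CPM with LPS/5z7, and was at −0.25 ± 0.11 in B6 (0.174), where it had 16.5, 17.2 and 16.9 CPM. The T169A call was lost without LPS library 17 or LPS/5z7 library 12 or 18 (0.153, 0.0984 and 0.15). Hspa1b, at 28.7, 34.4 and 35.4 CPM in T169A LPS/5z7 and 35.5, 32.8 and 38.5 CPM in B6 LPS/5z7 libraries, overlapped the LPS libraries and was not called (−0.07 ± 0.15 and −0.12 ± 0.15). Dnaja1 was not called either (0.01 ± 0.09 in T169A and −0.09 ± 0.09 in B6). The other 9 heat shock genes were not called in either genotype, with log2 fold changes between −0.19 and 0.16. The shift of the median of all genes with library size alone was 0.16 in each genotype, and Bag3 was then the 1 heat shock gene called.

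In the integrated stress group, Ppp1r15a stood at 119, 92.7 and 93 CPM in T169A LPS/5z7 and at 128, 131 and 101 CPM in B6 LPS/5z7 libraries, below every LPS library. It fell by 0.72 on the log2 scale in T169A (SE 0.13, adjusted p = 0.00127, edgeR) and by 0.75 in B6 (SE 0.13, 9.27e-04). Ddit4 stood at 1.7, 3.13 and 2.39 CPM in T169A LPS/5z7 and 1.45, 2.01 and 3.33 CPM in B6 LPS/5z7 libraries, close to unstimulated cells. It fell by 1.77 in T169A (SE 0.38, 0.00515) and by 1.38 in B6 (SE 0.40, 0.0286). The B6 call was lost without LPS library 8 (−0.90, 0.133) or LPS/5z7 library 3 or 6 (0.132 and 0.0886). Atf5 was called higher in B6 (0.36 ± 0.10, 0.028), where it had 40, 37.9 and 38 CPM with LPS/5z7 against 29, 30.7 and 30.9 CPM with LPS, and was at 0.28 ± 0.10 in T169A (0.0882). Its B6 call was lost whichever of the 6 libraries was left out (0.0719 to 0.125), and it was called in T169A without LPS/5z7 library 12 (0.0441) or with library size alone (0.44, 0.00765). Mthfd2 was not called with TMM (0.23 ± 0.09 in T169A and 0.19 ± 0.09 in B6) and was called higher with library size alone (0.38, 0.0106 and 0.35, 0.0151). Atf4 was at −0.26 ± 0.12 in T169A (0.187) and −0.27 ± 0.12 in B6 (0.16), and was called lower in T169A without LPS library 11 (−0.41, 0.0229). Psat1 was at −0.27 ± 0.10 in T169A (0.081) and −0.28 ± 0.10 in B6 (0.0648), and was called lower in B6 without LPS library 8 (0.0377) or LPS/5z7 library 6 (0.0251). Nupr1, at 329, 362 and 373 CPM in T169A LPS/5z7 and 305, 304 and 367 CPM in B6 LPS/5z7 libraries, was not called (−0.09 ± 0.18 and −0.07 ± 0.18).

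In the unfolded protein group, Hspa5 stood at 1250, 1150 and 1130 CPM in T169A LPS/5z7 and 1120, 1150 and 1220 CPM in B6 LPS/5z7 libraries, and Xbp1 at 175, 163 and 168 CPM and at 166, 165 and 180 CPM, all below the LPS libraries and above the unstimulated ones. Xbp1 fell by 0.35 on the log2 scale in T169A (SE 0.07, adjusted p = 0.00349, edgeR) and by 0.37 in B6 (SE 0.07, 0.00214), and both calls held with each library left out. With library size alone both were lost (−0.19, 0.0763 in T169A and −0.20, 0.0557 in B6). Hspa5 fell by 0.37 in T169A (SE 0.11, 0.0331) and by 0.38 in B6 (SE 0.11, 0.0269). Its calls were lost without T169A LPS library 11, 14 or 17 or LPS/5z7 library 15 or 18 (0.0683 to 0.117), and without B6 LPS library 8 or LPS/5z7 library 3 or 6 (0.0731, 0.0942 and 0.0643), and in both genotypes with library size alone (−0.21, 0.189 in T169A and −0.22, 0.17 in B6). The other 7 genes of this group were not called, at log2 fold changes between −0.10 and 0.22.

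**Figure D4:**
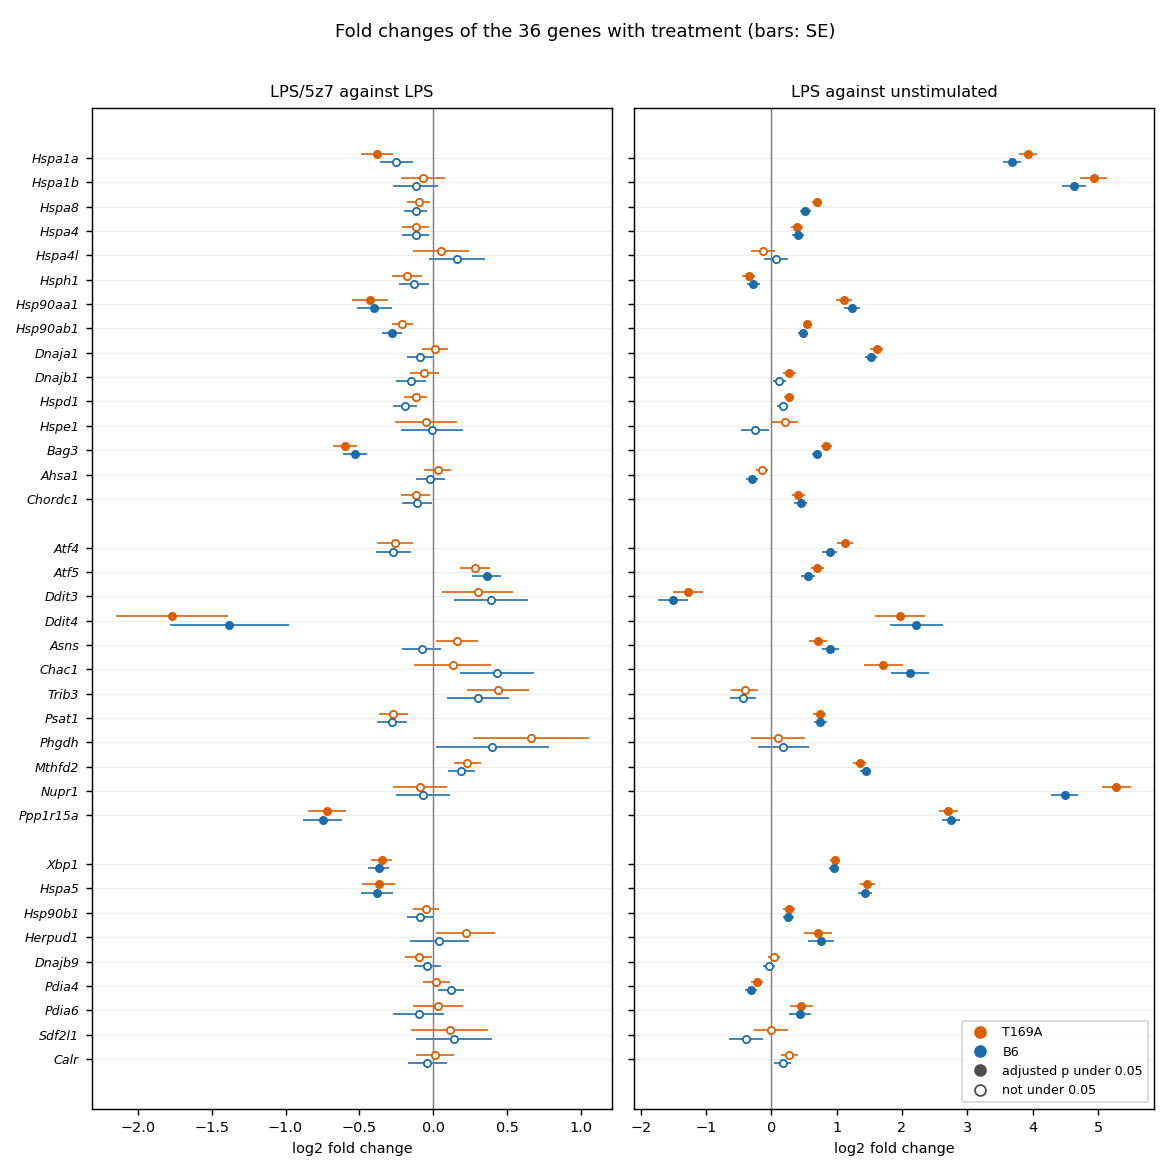
Log2 fold changes of the 36 genes with their SE (bars) for LPS/5z7 against LPS (left) and LPS against unstimulated cells (right), T169A in orange above B6 in blue; filled points have an adjusted p under 0.05 and the x axes differ in scale. With TMM scaling most LPS points lie right of 0 (some turn sign with library size alone), up to 5.28 for Nupr1 in T169A, while with 5z7 added the filled points are few and, apart from Atf5 in B6, lie left of 0, down to −1.77 for Ddit4 in T169A; with library size alone 2 are called higher in T169A and 3 in B6.

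LPS/5z7 against unstimulated cells shows where the genes stood with both agents. These comparisons share their LPS/5z7 or unstimulated libraries with the ones above. Of the 15 heat shock genes 9 were called higher and 1 lower in T169A, against 28.1% and 27.5% of all genes called, and B6 had 8 called higher and 2 lower, against 27.6% and 27.9% of all genes. The 12 integrated stress genes included 8 called higher and 1 called lower in each genotype, and of the 9 unfolded protein genes 5 were higher in T169A and 3 in B6, with 0 lower. Medians were 0.27, 0.87 and 0.28 in T169A and 0.24, 0.83 and 0.17 in B6 for the 3 groups in that order, beside 0 in T169A and −0.05 in B6 for all genes. Without TMM factors 4, 7 and 3 were higher and 4, 1 and 3 lower in T169A, and 4, 6 and 1 higher and 7, 2 and 4 lower in B6.

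Hspa1a stayed 11.7-fold above unstimulated cells in T169A (3.55 ± 0.15) and 10.8-fold in B6 (3.43 ± 0.14), Hspa1b 29.1-fold (4.87 ± 0.20) and 22.8-fold (4.51 ± 0.19), and Nupr1 36.7-fold (5.20 ± 0.22) and 21.4-fold (4.42 ± 0.21). Ppp1r15a stayed higher by 1.99 ± 0.14 in T169A and 2.00 ± 0.14 in B6, Hspa5 by 1.10 ± 0.11 and 1.05 ± 0.11, and Mthfd2 by 1.57 ± 0.09 and 1.63 ± 0.09. Ddit3 remained lower (−0.98 ± 0.22 and −1.12 ± 0.23), as did Hsph1 (−0.53 ± 0.10 and −0.41 ± 0.10). Ddit4 was not called in either genotype (0.20 ± 0.41 in T169A and 0.84 ± 0.45 in B6), though without B6 unstimulated library 7 it was called in B6 (1.23, adjusted p = 0.046, edgeR). Bag3 was at 0.17 ± 0.08 in B6 (0.092) and was called in T169A (0.24 ± 0.08, 0.0206), where its sign turns with library size alone (−0.18).

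Several of the small calls against unstimulated cells did not hold with each library left out. In T169A, Bag3 lost its call without unstimulated library 13 or 16 or LPS/5z7 library 12 or 18 (adjusted p = 0.071, 0.101, 0.0925 and 0.0591, edgeR), Chordc1 without unstimulated library 16 or LPS/5z7 library 12 or 18 (0.0652, 0.0985 and 0.0789), and Hspa4 without unstimulated library 13 or 16 or LPS/5z7 library 12 (0.0844, 0.0893 and 0.147). Hsp90b1 lost its T169A call (0.0493) whichever of the 6 libraries was left out (0.0682 to 0.211), and Pdia6 lost it without unstimulated library 10 or LPS/5z7 library 15 or 18 (0.0619, 0.0548 and 0.0649), while Phgdh gained one without LPS/5z7 library 12 (1.04, 0.0374). In B6, Hsp90ab1 lost its call without unstimulated library 1 or LPS/5z7 library 3, 6 or 9 (0.111, 0.0838, 0.0779 and 0.0569), and Hspa4 without LPS/5z7 library 3 (0.0502). Without B6 unstimulated library 7, Calr (0.31, 0.0224), Hsp90b1 (0.25, 0.0158) and Pdia6 (0.54, 0.00742) were called higher in B6. Pdia4 was called lower in B6 without unstimulated library 1 (−0.25, 0.0382) or LPS/5z7 library 9 (−0.30, 0.0146).

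T169A against B6 in the same condition asked whether the RIPK1 change shifted these genes. Of the 36 genes 0 were called in LPS/5z7, 0 in LPS and 0 in unstimulated cells by edgeR, where 0.161%, 0.222% and 0.214% of all genes were called. At an unadjusted p under 0.05 there were 3, 3 and 4 of the 36, beside 5.86%, 5.58% and 5.31% of all genes tested, and DESeq2 called 1, 1 and 0. The intervals were narrow for most genes: the 95% interval of the log2 difference reached a median of 0.22 to 0.23 to either side, and at most 0.79 to 0.86. Ripk1 itself averaged between 71.2 and 95 CPM over the 6 groups, and a gene count does not show an amino acid change.

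Mthfd2 came closest to a difference. It had 30.4, 29.3 and 33.8 CPM in T169A LPS/5z7, against 43.7, 40.5 and 39.7 CPM in B6 LPS/5z7 libraries, and 23.3, 28.7 and 27.9 CPM in T169A LPS, against 37.7, 36.8 and 34.2 CPM in B6 LPS libraries. In unstimulated cells it had 9.89, 11.1 and 10.4 CPM in T169A, against 13.8, 13.6 and 12.6 CPM in B6. All 3 T169A libraries lay below all 3 B6 libraries in each condition. The log2 differences were −0.41 ± 0.09 in LPS/5z7, −0.45 ± 0.09 in LPS and −0.35 ± 0.10 in unstimulated cells, with adjusted p = 0.107, 0.0569 and 0.301 (edgeR). DESeq2 called Mthfd2 lower in T169A in LPS/5z7 (0.00377) and in LPS (0.000373). Nupr1 was lower in T169A unstimulated cells without passing the test (−0.65 ± 0.20, adjusted p = 0.461), with 10.3, 8.87 and 9.75 CPM against 11.5, 14.4 and 20 CPM in B6. Its rise with LPS was larger in T169A by 0.79 ± 0.27 on the log2 scale, which did not pass either (unadjusted p = 0.00905, adjusted p = 0.916). Without B6 unstimulated library 7, where Nupr1 had 20 CPM, the unstimulated difference was −0.43 and that of the LPS effect 0.57.

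The difference of treatment effects between genotypes was called for 0 of the 36 genes and 0% of all genes for LPS against unstimulated, LPS/5z7 against LPS and LPS/5z7 against unstimulated cells (edgeR). At an unadjusted p under 0.05 there were 1, 0 and 1 of the 36, Nupr1 in both cases, and DESeq2 called 0 of them. So where a gene above was called in one genotype and not in the other, such as Dnajb1, Hspd1, Ahsa1, Hsp90ab1, Hspa1a or Atf5, the difference between genotypes itself did not pass. Intervals of these differences reached up to 1.1 for LPS against unstimulated, 1.09 for LPS/5z7 against LPS and 1.2 for LPS/5z7 against unstimulated cells to either side.

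**Figure D5:**
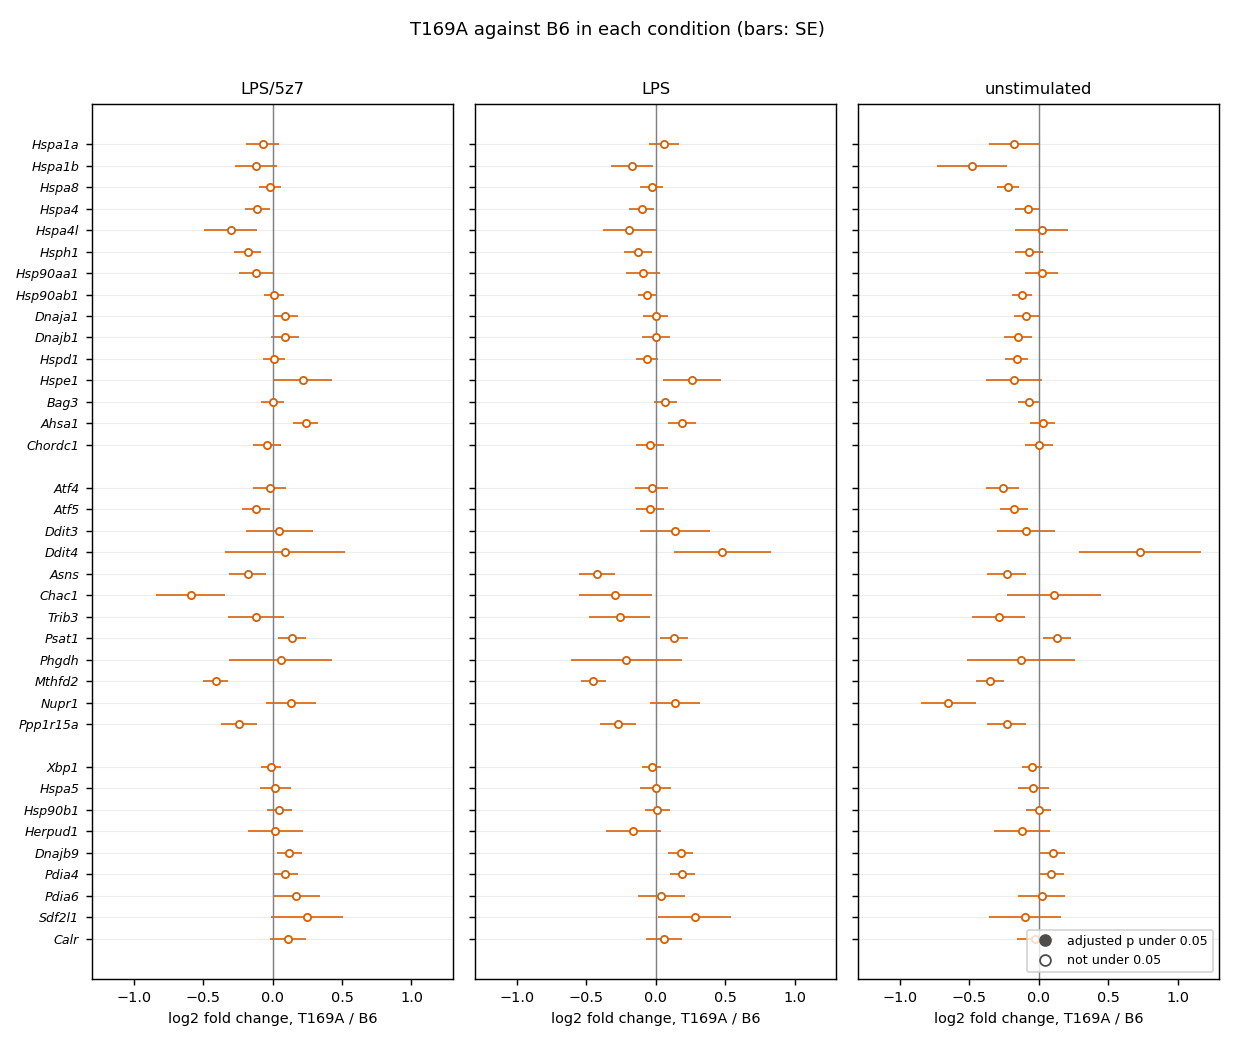
Log2 fold change of T169A against B6 with its SE (bars) for the 36 genes in LPS/5z7, LPS and unstimulated cells (left to right); open points have an adjusted p of 0.05 or more, and all points are open. Mthfd2 lies left of 0 in each panel, at −0.41, −0.45 and −0.35, and the widest bars are those of Ddit4, Phgdh and Chac1, which had few counts.

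The other genes of these pathways, taken from wider lists that were also chosen with earlier results known, were counted in the same way. With LPS, 26 of 40 further heat shock and chaperonin genes were called higher and 2 lower in T169A, and 25 and 2 in B6, with medians of 0.46 and 0.37, where 30.3% of all genes were called higher and 31.5% lower in T169A and 29.6% and 33.5% in B6. Those with the smallest p were Stip1, which bridges HSP70 and HSP90 (1.95 ± 0.08 in T169A and 1.93 ± 0.08 in B6), and the J-domain genes Dnajb4 (2.19 ± 0.09 and 2.11 ± 0.09) and Dnaja2 (1.58 ± 0.09 and 1.56 ± 0.09). Of 42 further integrated stress and amino acid genes 18 were higher and 12 lower in T169A, and 18 and 10 in B6 (median 0.15 in each). Of 47 further unfolded protein genes 22 were higher and 4 lower in T169A, and 18 and 3 in B6, with medians of 0.18 and 0.16. These splits turn with library size alone, which gave 12 higher and 14 lower, 7 and 28, and 2 and 32 for the 3 lists in T169A, and 10 and 20, 6 and 26, and 2 and 34 in B6. For 5z7 added to LPS, the counts in the same order were 1 higher and 6 lower, 0 and 6, and 1 and 2 in T169A, and 0 and 9, 1 and 7, and 0 and 2 in B6. Over all genes 6.5% were called higher and 6.53% lower in T169A, and 7.03% and 6.79% in B6. Without TMM factors the counts of the 3 lists were 2 and 1, 10 and 5, and 3 and 0 in T169A, and 2 and 2, 8 and 5, and 5 and 1 in B6.

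In the integrated stress list, Jdp2, an AP-1 repressor gene, rose by 5.52 ± 0.18 in T169A and 5.22 ± 0.18 in B6, Slc7a11, the cystine importer gene, by 5.41 ± 0.45 and 5.20 ± 0.44, and Ppp1r15b, the constitutive counterpart of Ppp1r15a, by 2.60 ± 0.19 and 2.69 ± 0.19. Cebpg, a C/EBP partner of ATF4, was lower (−1.40 ± 0.08 and −1.19 ± 0.08). Sesn2, of the same list, stood at 6.99, 5.94 and 7.24 CPM in T169A LPS, against 30.4, 32.8 and 31.2 CPM in T169A unstimulated libraries. In B6 it stood at 8.64, 8.55 and 7.62 CPM with LPS, against 30.1, 27.7 and 27.8 CPM without. Cebpg was among 12 genes of this list called lower in T169A and 10 in B6, beside 18 called higher in each. With 5z7 added, Gdf15, a stress cytokine gene, was lower than with LPS alone (−2.67 ± 0.22 in T169A and −2.68 ± 0.23 in B6), as were Atf3 (−0.82 ± 0.12 and −0.85 ± 0.12) and Jdp2 (−0.94 ± 0.15 and −0.97 ± 0.15). In the unfolded protein list, Ero1l, an oxidase of the reticulum, rose with LPS (1.38 ± 0.19 and 1.51 ± 0.19), and Crebrf, a regulator of that response, fell (−1.80 ± 0.21 and −1.54 ± 0.21).

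The sensors at the head of the pathways did not move as one. With LPS, Eif2ak2, the double-stranded RNA kinase PKR, rose by 2.12 ± 0.23 in T169A and 2.33 ± 0.23 in B6, while Eif2ak3, the reticulum kinase PERK, was lower (−1.68 ± 0.11 and −1.64 ± 0.11), as were Eif2ak4, the amino acid sensor GCN2 (−1.34 ± 0.12 and −1.18 ± 0.12), and Eif2ak1, the heme sensor HRI (−0.35 ± 0.08 in each). Eif2s1, which encodes eIF2α itself, was higher (0.89 ± 0.08 and 0.81 ± 0.08), at 0.31 and 0.22 with library size alone. Hsf2 was higher (0.63 ± 0.09 and 0.70 ± 0.09) and was lower with 5z7 added than with LPS alone (−0.43 ± 0.09 and −0.46 ± 0.09). With library size alone the LPS calls of Hsf2 were lost (0.04, adjusted p = 0.691, and 0.10, 0.32), as was its T169A call for 5z7 (−0.28, 0.0503). Hsf1 was called higher in T169A (0.46 ± 0.14, adjusted p = 0.00763, edgeR) and was at 0.31 ± 0.14 in B6 (0.0636), and its sign turns with library size alone (−0.11 and −0.29). Ern1, which encodes IRE1, and Atf6 were not called with LPS in either genotype (−0.22 ± 0.19 and 0.06 ± 0.17 in T169A, 0.22 ± 0.19 and 0.25 ± 0.17 in B6).

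The genes whose pattern over the 18 libraries was most like that of the heat shock group were Ppp2ca, Gtpbp4, Bcl10, Cct8 and Etf1. The measure was Pearson's r of the log2 of CPM plus 1 with the mean of that value, standardised, over the 11 heat shock genes called in B6. Those 11 include Hsph1 and Ahsa1, which were called lower with LPS. The r was 0.99 or more for each of the 5. The 18 points fall into treated and untreated libraries, so r is a description of that split. Cct8 encodes a subunit of the cytosolic chaperonin, and Bcl10 a signalling adaptor upstream of NF-kB.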

How the data were processed

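Total RNA was isolated with TRIzol and made into TruSeq directional libraries, per the labels' protocols. The authors deposited raw counts of reads per gene, and the submitters' processing notes name featureCounts, STAR, Trim Galore and the build GRCm39; versions, strand setting and the treatment of reads that match several genes are not given in the sources used here, so reads of overlapping antisense genes may be included. Gene IDs were matched to symbols through GENCODE on GRCm38 (52029 of 56953 IDs, holding 99.8% of counts). All 18 columns were used, 0 were left out. Columns name the group and a running number, by which libraries are called here, and no replicate letter.

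Counts were tested with edgeR 4.0.16 in R 4.3.3: filterByExpr by group, TMM factors, 6 group means in 1 fit over all libraries, the robust quasi-likelihood test, and Benjamini-Hochberg adjustment over all genes tested. An adjusted p under 0.05 was a call. SE is the log2 fold change divided by the root of F, and 95% intervals are 1.96 SE to either side. The fit was tested on simulated data with 200 changed genes. Depth of 14.6 to 30.4 M counts puts the limit that a count of 0 allows, 3 counts, at 0.0986 to 0.205 per M counts of the library. This holds without TMM factors and for counting error only.

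The 36 genes and the wider lists were chosen with earlier results of these data known. All 36 are reported. From the wider lists, up to 3 genes called higher and 3 lower per comparison with the smallest p and a mean of 5 CPM in a group could be named. Of these, some with larger changes are given, besides the sensors and Tnf. Sesn2 was named for its fall after seeing the data. Genes of like pattern were the 5 with the highest r and a mean of 5 CPM. Alternatives were DESeq2 1.42.0, its size factors, library size alone, 2 other filters, the compared groups alone, a minimum of 2-fold, a replicate block and each library left out. Counts under library size alone for the wider lists were added after seeing the data. Promoters and sequence identity were read with Python 3.11.15 and Biopython 1.88, and figures drawn with matplotlib 3.10.9.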

Additional observations from a re-analysis of the deposited data

How the results depend on the processing

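Scaling mattered most. With library size alone, the direction reversed in T169A LPS against unstimulated cells for Hspa4 (−0.19), Hsp90ab1 (−0.03), Dnajb1 (−0.31), Hspd1 (−0.32), Chordc1 (−0.17), Hsp90b1 (−0.31), Dnajb9 (−0.54) and Pdia6 (−0.12). In B6 LPS against unstimulated cells it reversed for Hspa8 (−0.07), Hspa4 (−0.18), Hspa4l (−0.51), Hsp90ab1 (−0.11), Dnajb1 (−0.48), Hspd1 (−0.42), Chordc1 (−0.14), Atf5 (−0.03), Hsp90b1 (−0.33), Pdia6 (−0.16) and Calr (−0.42). For LPS/5z7 against unstimulated cells it reversed in T169A for Hspa4 (−0.15), Hsp90ab1 (−0.09), Hspd1 (−0.28), Bag3 (−0.18), Chordc1 (−0.13) and Hsp90b1 (−0.21), and in B6 for Hspa8 (−0.02), Hspa4 (−0.13), Hsp90ab1 (−0.22), Bag3 (−0.26), Chordc1 (−0.09) and Hsp90b1 (−0.26). Of these reversed genes, Dnajb1, Hspd1, Hsp90b1 and Dnajb9 were called lower with LPS in T169A, and Hspa4l, Dnajb1, Hspd1, Hsp90b1 and Calr in B6. For LPS/5z7 against unstimulated cells, Hspd1 and Hsp90b1 were called lower in T169A, and Hsp90ab1, Bag3 and Hsp90b1 in B6. The shift of all genes by library size alone is part of its construction. Over all genes this scaling gave 1934 higher and 8106 lower for LPS in T169A, 1996 and 8484 in B6, and for 5z7 added 2177 and 530, and 2339 and 516. For LPS/5z7 against LPS it left 1 heat shock gene called lower in each genotype; of the integrated stress genes 2 were then higher and 2 lower in each, and of the unfolded protein genes 0 were called in T169A and 1, Pdia4, was higher in B6 (0.29).

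Asking for at least a 2-fold change as well left 4 of 12 called heat shock genes and 8 of 16 called stress and unfolded protein genes for LPS in T169A, and 4 of 11 and 7 of 16 in B6, beside 3857 of 8085 and 3976 of 8240 called genes in all. For 5z7 added to LPS it left 0 of 3 and 1 of 4 in T169A, and 0 of 3 and 1 of 5 in B6, beside 385 of 1703 and 398 of 1806. For LPS/5z7 against unstimulated cells it left 3 of 10 and 5 of 14 in T169A, and 3 of 10 and 6 of 12 in B6, beside 3113 of 7269 and 3162 of 7257. With no filter, 2 stress and unfolded protein genes in T169A and 3 in B6 were called for 5z7 added to LPS; the cause was not tested. Leaving out each library gave 1 to 3 heat shock and 3 to 5 other genes in T169A for that comparison, and 2 to 3 and 2 to 4 in B6; the lowest came without T169A LPS/5z7 library 18 and B6 LPS/5z7 library 3. For T169A against B6 in LPS, DESeq2 and its size factors in edgeR each called 1 gene, and in LPS/5z7 DESeq2 and the compared groups alone each called 1, Mthfd2 in every case. With the compared groups alone, calls were also lost for Hsph1, Ahsa1, Hsp90b1, Pdia4 and Pdia6 in B6 with LPS, for Hspa1a in T169A with 5z7 added, and for Hsp90ab1 and Ahsa1 in B6 for LPS/5z7 against unstimulated cells; the cause was not tested.

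The columns carry no replicate letter, so a block by letter could not be fitted. A replicate block of consecutive running numbers within a genotype called 12 heat shock and 17 other genes for LPS in T169A and 11 and 18 in B6, 4 and 5 in T169A and 3 and 6 in B6 for 5z7 added, and 11 and 16 in T169A and 10 and 15 in B6 for LPS/5z7 against unstimulated cells. No call was lost; those gained were Calr in T169A and B6 and Sdf2l1 in B6 with LPS, Psat1 in both and Hsp90ab1 in T169A with 5z7 added, and Calr and Dnajb1 in T169A, Ddit4 and Pdia6 in B6 and Pdia4 in both for LPS/5z7 against unstimulated cells. Deviations of libraries in such a set correlated at −0.05 to 0.62, above 0.1 in 15 of 18 pairs. Pairs from different sets were not computed for comparison, so these values cannot decide whether the numbers mark pairing. The main fit used no block. No such block exists between genotypes. Low counts limit Phgdh and Chac1.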
